A study of Mus musculus with 24 samples.

Results

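The 31 genes described here belong to the pathway controlled by the sterol regulatory element-binding proteins (SREBPs), and their transcripts were measured in endothelial cells (BMEC) and stroma (BMS) of mouse bone marrow. They were chosen by gene symbol, and all 31 were found among the 23879 symbols of each library. The sterol arm holds 16 genes of cholesterol synthesis and transport, the fatty acid arm holds 10 genes of fatty acid synthesis and modification, and 5 genes code for the regulators of the pathway.

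SREBPs are transcription factors made as precursors in the membrane of the endoplasmic reticulum. Scap carries them to the Golgi, where they are cut and released, and the Insig proteins hold Scap back when sterols are plentiful. SREBP-2, from Srebf2, mainly drives the genes of cholesterol synthesis, and SREBP-1, from Srebf1, mainly drives those of fatty acid synthesis. Insig1 is itself a target of the pathway. In marrow, endothelium and stroma both form the surroundings of blood stem cells.

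The series holds 24 libraries of polyadenylated RNA from the C57BL/6J strain, in 8 groups of 3. Both cell types were sampled in a first culture, in a culture series without hematopoietic stem and progenitor cells (HSPC) and with them, and directly from the marrow in vivo. The design asks how the cells differ between culture and marrow and what co-culture changes. All 18 titles of cultured libraries include the name Akt1, a kinase of growth factor signalling, with no account of what was done to it, and the 6 in vivo titles do not include it. No label states the age or sex of the animals, how the cells were sorted, or whether a culture was a clone or a pool. Nor is it stated that the 3 libraries per group stem from distinct cultures or mice, so p-values measure only the spread between these libraries. The co-cultured cells are called HSPC in the titles and hematopoietic stem cells in another label.

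Values are FPKM (fragments per kilobase of transcript, scaled to the sequenced fragments), as deposited, and differences are on the log2(FPKM + 1) scale, which understates changes at low levels. Library totals ran from 1421447 to 1808592 FPKM, and the 31 genes made up 0.0818% to 0.674% of them. Endothelial markers summed to 10923.1 to 21618.6 FPKM in BMEC libraries and 24.8 to 400.3 in BMS libraries. Among the 9 adipocyte markers, the sum ran from 112.2 to 1447.4 FPKM in BMS of the first culture, and Col1a1, the main collagen of stroma, averaged 1910 FPKM there against 26500 in BMS of the second series without HSPC. Xist, the transcript of the inactive X chromosome, was at 1006.23 to 1249.78 FPKM in 3 of the 6 libraries of the first culture (BMEC replicates 2 and 3, BMS replicate 3) and at 2.35 FPKM or less in every other library of the series. Ddx3y, a gene of the Y chromosome, was at 0 in those 3 libraries and at 114.38 FPKM or more in every other library. BMS replicate 1 of the first culture stood apart in the sterol arm, with a mean log2 level of 7.22 against 6.22 and 6.14. Libraries within a group correlated at r = 0.9539 to 0.9927 in that group and at 0.9947 or more across genes in the second series and in vivo.

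Stretches just before the transcription start are shown for the sterol genes whose response to HSPC differed most between the cell types (Tm7sf2, Mvd, Acat2 and Hsd17b7, while Fdps, which ranked between Acat2 and Hsd17b7, has no entry in the table used), for Srebf2, and for a pair of fatty acid genes that contrast in the same feature. Capitals mark CCAAT, the box bound by NF-Y, a factor known to act with SREBPs at sterol genes, or its complement ATTGG. The 150 bases are given 5′ to 3′ in the direction of transcription, from RefSeq on GRCm38.p6, a later build than the mm9 used for the expression files. Their positions are chr19:6067851-6068000 (minus strand) for Tm7sf2, chr8:122443423-122443572 (minus) for Mvd, chr17:12960726-12960875 (minus) for Acat2, chr1:169969206-169969355 (minus) for Hsd17b7, chr15:82147119-82147268 (plus) for Srebf2, chr11:120824548-120824697 (minus) for Fasn and chr3:129532236-129532385 (plus) for Elovl6.
Tm7sf2: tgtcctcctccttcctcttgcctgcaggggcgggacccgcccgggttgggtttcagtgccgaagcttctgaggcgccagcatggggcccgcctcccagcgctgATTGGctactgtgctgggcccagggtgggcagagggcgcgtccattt
Mvd: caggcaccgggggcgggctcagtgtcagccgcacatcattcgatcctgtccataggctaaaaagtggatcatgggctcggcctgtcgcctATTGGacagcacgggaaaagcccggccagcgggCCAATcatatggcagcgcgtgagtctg
Acat2: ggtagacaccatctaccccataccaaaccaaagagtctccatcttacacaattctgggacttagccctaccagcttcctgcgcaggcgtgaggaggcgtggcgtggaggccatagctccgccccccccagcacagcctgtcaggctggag
Hsd17b7: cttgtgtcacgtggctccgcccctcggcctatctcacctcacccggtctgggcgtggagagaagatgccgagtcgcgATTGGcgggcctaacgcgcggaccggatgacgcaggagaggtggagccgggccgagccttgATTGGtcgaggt
Srebf2: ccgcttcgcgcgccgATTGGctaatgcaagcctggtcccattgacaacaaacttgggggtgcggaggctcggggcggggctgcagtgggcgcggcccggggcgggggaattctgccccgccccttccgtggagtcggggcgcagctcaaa
Fasn: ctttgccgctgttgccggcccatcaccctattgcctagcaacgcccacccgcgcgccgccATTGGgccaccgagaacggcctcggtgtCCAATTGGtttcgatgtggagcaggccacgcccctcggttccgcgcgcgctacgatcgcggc
Elovl6: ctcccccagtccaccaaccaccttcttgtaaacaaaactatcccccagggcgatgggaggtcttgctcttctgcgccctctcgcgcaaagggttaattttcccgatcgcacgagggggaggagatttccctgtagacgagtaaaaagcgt
Of the 31 genes, 24 had an entry in the promoter table, which spans 250 bases before to 50 after each listed start. CCAAT on either strand was present in 11 of 12 sterol genes (not in Acat2), in 4 of 5 regulators (not in Scap) and in 3 of 7 fatty acid genes (Acly, Acss2 and Fasn). It was held by 41.1% of all 27025 genes listed there, and by 42.6% of the 10349 that were also tested in the HSPC comparison. Fasn held 3 such matches in the printed stretch, 2 of them overlapping, and Acat2 and Elovl6 none. GGGCGG, the box bound by Sp1, was found on either strand in 11 of 12 sterol genes, 5 of 5 regulators and 3 of 7 fatty acid genes, against 67.8% of tested genes. CACGTG, an E-box, was in 2 sterol genes (Hsd17b7 and Dhcr7), 2 regulators (Scap and Insig1) and 0 fatty acid genes, against 11.5% of tested genes. A core of the sterol regulatory element, TCACNCCAC, was in 0 of the 24, against 1.41% of tested genes. With so low a share, 0 of 24 cannot tell these genes from others or show that they lack such elements. The 7 members without an entry were not searched. A match describes these letters only and is not evidence that a factor bound there.

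The arms differed in the order of their mean levels. The sterol arm was highest in BMEC with HSPC, with a mean log2 level of 7.61 ± 0.03 (SD, n = 3), followed by BMEC without HSPC at 6.88 ± 0.10. BMS of the first culture followed at 6.53 ± 0.60, then BMS without HSPC at 5.54 ± 0.13, BMEC of the first culture at 5.34 ± 0.54 and BMS with HSPC at 4.99 ± 0.08. It was lowest in vivo, at 4.62 ± 0.15 in BMS and 4.30 ± 0.06 in BMEC. The ranges of BMEC without HSPC and first-culture BMS overlapped, and that of first-culture BMEC overlapped all 3 other BMS groups. Of the 16 sterol genes, 15 had their highest group mean in BMEC with HSPC, and Dhcr7 had its highest in BMEC without HSPC. The fatty acid arm had no such common peak, with 4 genes highest in BMEC with HSPC, 3 in first-culture BMS, 2 in BMS without HSPC and 1 in BMS with HSPC. Its mean ran from 7.33 ± 0.01 in BMEC with HSPC to 4.93 ± 0.13 in BMEC in vivo, and BMS of the first culture (7.27 ± 0.14) and BMEC with HSPC overlapped. The sterol mean exceeded the fatty acid mean in BMEC of the second series only, by 0.11 to 0.16 without HSPC and 0.26 to 0.31 with HSPC, and was 0.15 to 1.65 below it in the other 18 libraries.

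**Figure D1:**
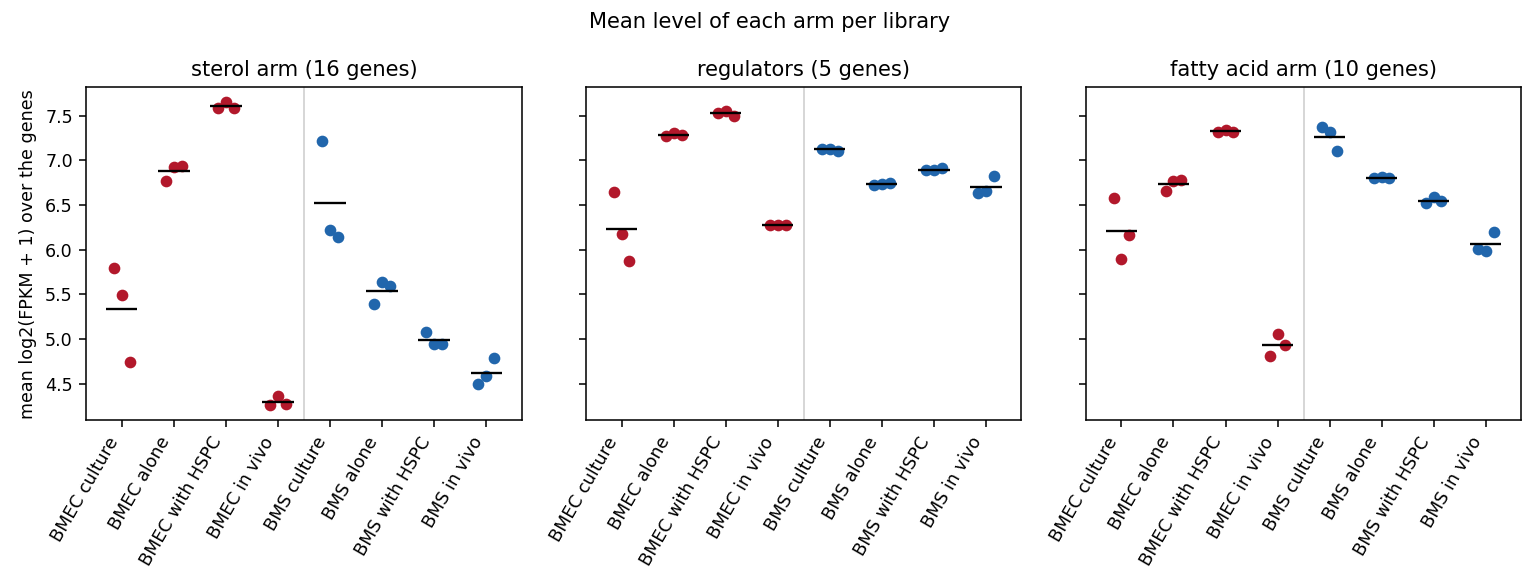
Mean log2(FPKM + 1) of the sterol arm, the regulators and the fatty acid arm in each of the 24 libraries (points) with the group mean (bars), by group. The sterol arm spans a group mean of 4.30 in BMEC in vivo to 7.61 in BMEC with HSPC. The group means of the regulators stay within 6.23 to 7.53, and their single libraries within 5.87 to 7.55.

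The HSPC comparison asks what co-culture changes in each cell type. In BMEC, 27 of the 31 genes were higher with HSPC and 2 were lower. In BMS, 4 were higher and 21 lower. The sterol arm rose in BMEC for 15 of 16 genes, with a median log2 difference of 0.84, and fell in BMS for 13 of 16, with a median of -0.58. Over the 14017 genes tested with limma, 28.3% were called higher and 20.3% lower in BMEC at an adjusted p under 0.05 (48.6% in either direction), with a median difference of 0.02. In BMS, 25.6% were called higher and 35.4% lower (61% in either direction), with a median of -0.04. Of the BMEC calls over all genes 58.2% were higher, and 47.6% were under trimmed-mean scaling. Of the BMS calls 42% were higher, and 49.8% under that scaling. Fits that took the spread from all 8 groups called fewer of the 31 genes, 9 in BMEC and 6 in BMS.

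The regulators did not move as a block. Srebf2, the source of SREBP-2, was at 290.1, 296 and 295 FPKM in the 3 BMEC libraries without HSPC and at 388, 390.3 and 378 with HSPC. In BMS it was at 167, 169 and 173 without HSPC and at 148, 137 and 142 with HSPC. Groups did not overlap in either cell type, and the change was upward in BMEC and downward in BMS. The log2 difference was 0.39 (SE 0.03, adjusted p = 1.8e-06) in BMEC and -0.25 (SE 0.03, adjusted p = 3.84e-05) in BMS.

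Srebf1 behaved otherwise. It was at 90.9, 95.5 and 84.3 FPKM in BMEC without HSPC and 92.2, 93.1 and 91.1 with HSPC, with overlapping groups. In BMS it was at 103, 97.8 and 89.5 without and 128, 132 and 135 with HSPC, with every co-cultured library above the others. The difference passed the test in BMS, at 0.44 (SE 0.06, adjusted p = 3.19e-05), and not in BMEC, at 0.03 (SE 0.06, adjusted p = 0.705). The response of Srebf1 was lower in BMEC than in BMS, with -0.41 (SE 0.08, adjusted p = 0.000939) for the difference of differences, whereas that of Srebf2 was higher, with 0.64 (SE 0.05, adjusted p = 7.4e-07). The ratio of Srebf1 to Srebf2 was 0.307 ± 0.019 (SD, n = 3) in BMEC alone and 0.239 ± 0.0015 with HSPC, and it was 0.571 ± 0.05 and 0.928 ± 0.052 in BMS.

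Scap, the escort of the precursors, was at 93.1, 99.7 and 93.02 FPKM in BMEC without HSPC and 86.5, 79.1 and 80.9 with HSPC. In BMS it was at 94.5, 89.3 and 86.2 and 74.4, 66.5 and 73.3. It was lower with HSPC in both cell types with no overlap, at -0.21 (SE 0.06, adjusted p = 0.00813) in BMEC and -0.33 (SE 0.06, adjusted p = 0.000303) in BMS. The responses were not called different, at 0.12 (SE 0.08, adjusted p = 0.218).

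The Insig genes, which retain Scap, differed from each other. Insig1 was at 487, 537 and 523 FPKM in BMEC without and 621, 654 and 631 with HSPC, and at 105, 121 and 124 and 121, 102 and 114 in BMS. Its BMEC groups were apart and its BMS groups overlapped. It rose in BMEC by 0.30 (SE 0.07, adjusted p = 0.00556) and was at -0.06 (SE 0.07, adjusted p = 0.545) in BMS. Insig2 was at 71.1, 64.4 and 74.1 in BMEC without and 109, 121 and 107 with HSPC, and at 72.1, 75.3 and 82.3 and 130.5, 182 and 151 in BMS. It was higher with HSPC in every library of both cell types, by 0.68 (SE 0.10, adjusted p = 0.000257) and 0.99 (SE 0.10, adjusted p = 8.1e-06). The ratio of Insig1 to Insig2 went from 7.41 ± 0.8 to 5.67 ± 0.24 in BMEC and from 1.52 ± 0.078 to 0.747 ± 0.18 in BMS, as ratios of the deposited values with no test.

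**Figure D2:**
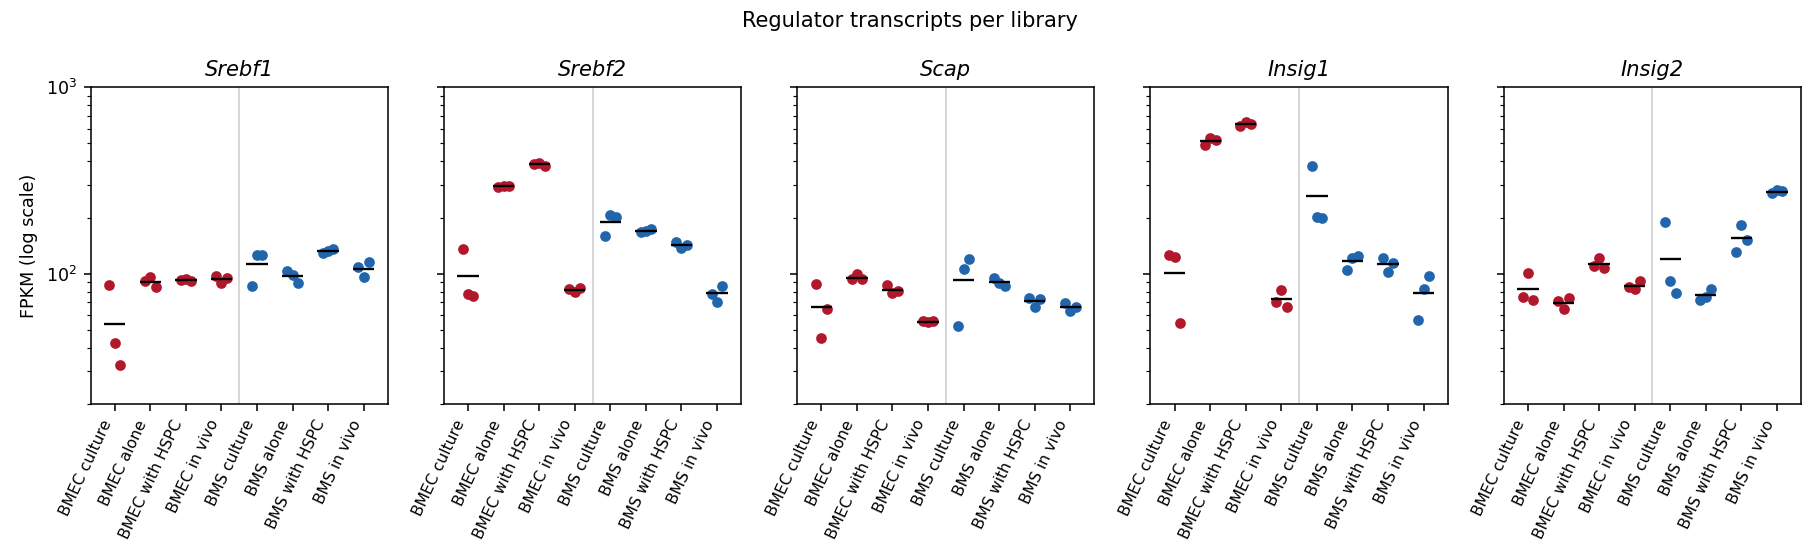
FPKM of Srebf1, Srebf2, Scap, Insig1 and Insig2 in each library on a log axis, by group, with the mean of the 3 libraries as a bar. Insig1 is near 516 FPKM in BMEC without HSPC and 117 in BMS without HSPC, and Srebf1 stays between 53.96 and 132 FPKM in group means.

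In the sterol arm of BMEC the largest rises were those of Tm7sf2, Fdft1 and Mvd. Tm7sf2, a sterol reductase, was at 34.1, 37.2 and 39.6 FPKM without HSPC and 81.2, 89.8 and 89.7 with HSPC, a rise of 1.21 (SE 0.11, adjusted p = 4.09e-06). Fdft1, squalene synthase at the entry to sterol synthesis proper, was at 144, 152 and 158 and 345, 352 and 345, a rise of 1.2 (SE 0.07, adjusted p = 1.56e-07). Mvd, the decarboxylase that ends the mevalonate steps, was at 64.4, 78.4 and 73.5 and 154, 158 and 155, a rise of 1.11 (SE 0.07, adjusted p = 2.3e-07). For each of these genes every library with HSPC lay above every library without. They were chosen for their large differences, so this lack of overlap describes them and adds no evidence. Of the other sterol genes that rose, Hsd17b7 and Nsdhl, which act in removing methyl groups from the ring, had differences of 1.07 and 1.05. Dhcr7, the reductase of the final step, went the other way and fell by 0.33, from 111, 133 and 120.4 to 96.6, 97.1 and 95.98 FPKM. The call of Ebp in BMEC, at 0.20 (SE 0.06, adjusted p = 0.0145), was lost without BMEC replicate 1 with HSPC (0.17, adjusted p = 0.0616).

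In BMS the same arm was lower. Acat2, the cytosolic thiolase that joins acetyl-CoA units at the start of the pathway, was at 64.3, 77.6 and 73.3 FPKM without HSPC and 27.2, 39.95 and 29.6 with HSPC, a difference of -1.14 (SE 0.12, adjusted p = 9.41e-06). Dhcr7 was at 41.6, 48.4 and 46.97 and 23.4, 24.8 and 23.6, a difference of -0.90 (SE 0.07, adjusted p = 5.48e-07). Mvk, mevalonate kinase, was at 41.7, 55.7 and 46.6 and 28.3, 25.6 and 25.2, a difference of -0.83 (SE 0.10, adjusted p = 1.9e-05). All co-cultured libraries lay below all others for these 3 genes, which were chosen for their large differences. Cyp51, the lanosterol demethylase, was at 132, 156 and 152 and 94.6, 69.9 and 83.1, a difference of -0.83 (SE 0.10, adjusted p = 2.48e-05). The genes that did not pass the test in BMS were Sqle, squalene epoxidase, at 0.21 (SE 0.11, adjusted p = 0.139), Lss, lanosterol synthase, at -0.24 (SE 0.11, adjusted p = 0.0742), and Ebp, a sterol isomerase, at -0.08 (SE 0.06, adjusted p = 0.24). Without BMS replicate 2 with HSPC, Sqle was called higher (log2 difference 0.35, adjusted p = 0.00355) and Lss lower (-0.33, adjusted p = 0.0235), by the same test.

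Opposite responses were counted as calls higher in BMEC and lower in BMS. This held for 12 of 16 sterol genes (Acat2, Mvk, Pmvk, Mvd, Idi1, Fdps, Fdft1, Cyp51, Tm7sf2, Nsdhl, Hsd17b7 and Stard4), for Srebf2 among the regulators and for 6 of 10 fatty acid genes. The BMS call of Pmvk was lost without BMS replicate 2 lacking HSPC or replicates 1 or 3 with HSPC (adjusted p of 0.073, 0.0712 and 0.054). Of all tested genes 7.13% had that pattern, and 4.16% had the reverse, which no member had. In the test of the difference itself, all 16 sterol genes responded higher in BMEC than in BMS, from 0.28 for Ebp to 1.99 for Tm7sf2, with a median of 1.44. Over all genes 36% were called higher and 21.1% lower in that test (57% in either direction), with a median of 0.11. Under trimmed-mean scaling the median over all genes was 0.01 and 50.1% of calls were higher in place of 63.1%, and Ebp at 0.17 and Insig1 at 0.24 were no longer called. With the spread taken from all 8 groups, 11 of the 27 calls remained in number.

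**Figure D3:**
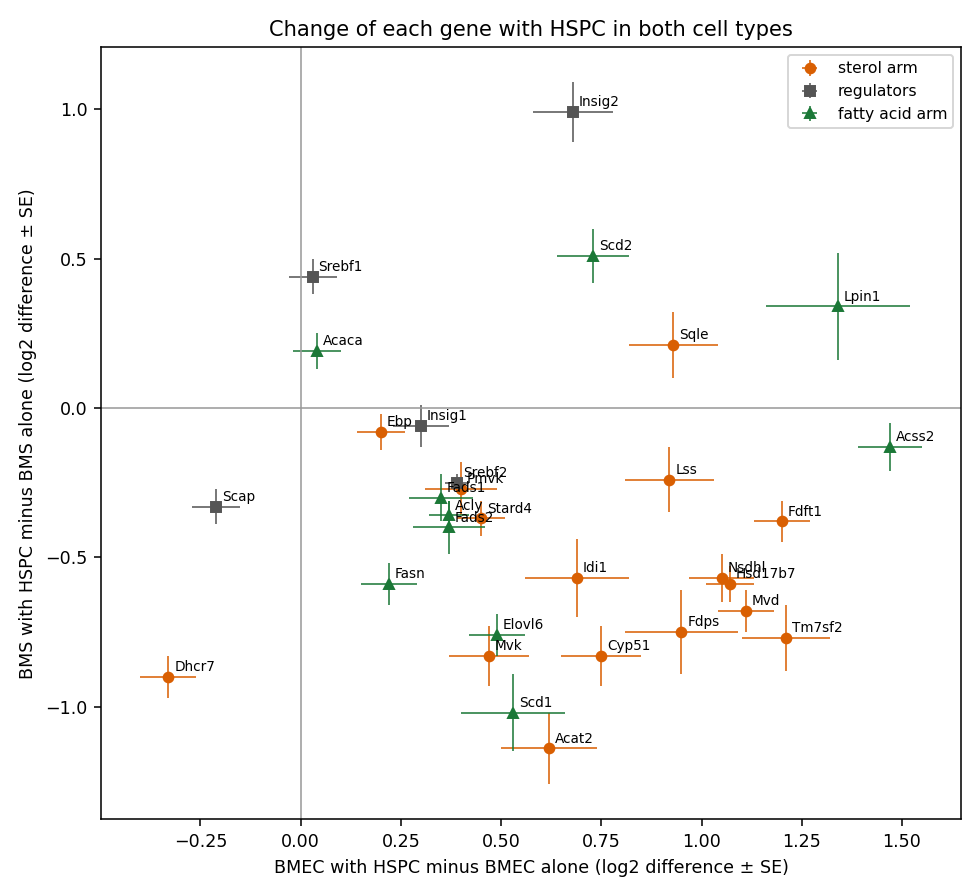
The log2 difference with HSPC in BMEC (horizontal axis) against that in BMS (vertical axis) for the 31 genes, coloured by arm, with lines of 1 SE. The 12 sterol genes called in opposite directions lie to the right of 0 and below it, and Dhcr7 and Scap are below 0 on both axes. Insig2, Scd2, Sqle, Lpin1, Acaca and Srebf1 are above 0 on both. Of these, Insig2 and Scd2 were called in both cell types.

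The fatty acid arm followed less uniformly. Of all genes tested, 28.3% were called higher and 20.3% lower in BMEC. In BMEC 9 of 10 genes rose with a median of 0.43, and Acaca, the carboxylase that makes malonyl-CoA, was at 0.04 (SE 0.06, adjusted p = 0.623). Acss2, which makes acetyl-CoA from acetate, was at 7.17, 6.69 and 8.67 FPKM without HSPC and 21.7, 23.3 and 22.5 with HSPC, a rise of 1.47 (SE 0.08, adjusted p = 9.82e-08). Lpin1, a phosphatidate phosphatase of glycerolipid synthesis, was at 6.16, 7.46 and 7.03 and 17.9, 21.5 and 17.8, a rise of 1.34 (SE 0.18, adjusted p = 8.34e-05). Scd2, a desaturase that makes monounsaturated fatty acids, was at 1988, 1948 and 2014 and 3321, 3346 and 3214, a rise of 0.73 (SE 0.09, adjusted p = 5.08e-05). None of these groups overlapped, and Acss2 and Lpin1 started from the lowest levels of the 31 genes in BMEC without HSPC. Fasn, fatty acid synthase, rose by 0.22, and its call was lost without BMEC replicate 1 of either group (adjusted p of 0.0751 without it in the group lacking HSPC and 0.0668 in the co-cultured group).

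In BMS, 6 fatty acid genes fell, 2 rose and the median was -0.33, where 35.4% of all genes were called lower and 25.6% higher. Scd1, the desaturase most associated with lipogenic tissues, was at 82.1, 86.8 and 84.2 FPKM without HSPC and 32.4, 53.2 and 40.2 with HSPC, a difference of -1.02 (SE 0.13, adjusted p = 2.84e-05). Elovl6, which lengthens palmitate, was at 112, 117 and 114 and 68.3, 66.2 and 66.3, a difference of -0.76 (SE 0.07, adjusted p = 2.59e-06). Fasn was at 124, 118 and 114 and 86.1, 72.5 and 76.8, a difference of -0.59 (SE 0.07, adjusted p = 1.18e-05). Groups were apart for all 3. Scd2, in contrast, was higher in BMS with HSPC, at 712, 719.6 and 708 against 884, 1227 and 965, with 0.51 (SE 0.09, adjusted p = 0.000497). The ratio of Scd2 to Scd1 went from 8.45 ± 0.19 to 24.8 ± 2.2 in BMS and from 9.25 ± 0.063 to 10.6 ± 0.33 in BMEC. Acaca rose slightly in BMS, by 0.19 (SE 0.06, adjusted p = 0.0158), and the call was lost without BMS replicate 3 with HSPC (0.15, adjusted p = 0.0673).

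Of all genes 36% were called higher and 21.1% lower in the test of the difference. There, 8 of 10 fatty acid genes responded higher in BMEC, with a median of 0.79 against 1.44 for the sterol arm. The largest were Acss2 at 1.60 (SE 0.12, adjusted p = 1.1e-06), Scd1 at 1.55 (SE 0.18, adjusted p = 2.53e-05) and Elovl6 at 1.25 (SE 0.10, adjusted p = 1.57e-06). Acss2 was not called in BMS, where it was at 22.7, 22.9 and 23.8 without and 20.1, 22.96 and 20.3 with HSPC. Scd2 was not called, at 0.22 (SE 0.13, adjusted p = 0.164), except without BMS replicate 2 with HSPC (0.36, adjusted p = 0.000249). Acaca was not called either, at -0.15 (SE 0.09, adjusted p = 0.151). Acly, which makes cytosolic acetyl-CoA from citrate for both arms, rose in BMEC and fell in BMS, as did the polyunsaturated fatty acid desaturases Fads1 and Fads2.

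Markers of blood cells were higher in sum with HSPC in both cell types. The summed level of 10 pan-hematopoietic markers was 72 to 79.9 FPKM in BMEC without HSPC and 197.8 to 236.8 with HSPC, and 0.5 to 1.9 and 28.8 to 39.1 in BMS. Most of the sum in BMEC without HSPC was Lcp1, which averaged 69.9 FPKM there and 76.7 with HSPC. Ptprc (CD45), the defining marker, was at 0 in both groups without HSPC and averaged 1.54 FPKM in BMEC and 0.387 in BMS with HSPC. Stromal markers in BMEC libraries summed to 584.7 to 688.4 FPKM without HSPC and 260.6 to 271.5 with HSPC. Nearly all of that sum was Cxcl12, with means of 619 and 264 FPKM, and Cxcl12 averaged 1530 in BMEC in vivo. Col1a1 averaged 5.05 FPKM without and 0.557 with HSPC, and Pdgfrb 1.55 and 0. Adipocyte markers summed to 69 FPKM or less in all 12 libraries of this series. Their part in the differences was not tested, and in bulk RNA fewer cells of a type and less RNA per cell cannot be told apart.

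Exons shared with other genes limit some values, since the strand used in counting is not stated. On the GENCODE M21 annotation Fdft1 overlaps Ctsb on the opposite strand, and Ctsb differed by 0.81 in BMEC and -0.19 in BMS with HSPC. Cyp51 overlaps Akap9 (0.55 and 0.14), Srebf1 overlaps Rai1 (-0.19 and 0.24), and Acss2 overlaps Ggt7 and Gss. Tm7sf2 shares exonic sequence on the same strand with Vps51 (0.15 and 0.02). Fdps does so with the annotated gene Gm43738. Reads of Acat2 may be split with its near copy Acat3 (0.59 and -0.94), and those of Scd1 and Scd2 with Scd3 and Scd4.

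Other genes of the pathway were described from 4 lists. Of 12 genes for SREBP processing and degradation, 3 rose and 2 fell in BMEC with HSPC, and 5 rose and 2 fell in BMS, with medians of 0.04 and 0.06. Rnf145, a sterol-responsive ubiquitin ligase acting on Scap, had a difference of 1.18 in BMEC and 0.29 in BMS, and Erlin1, an endoplasmic reticulum protein that restrains SREBPs, had 0.09 (not called) and 0.99. Of 14 genes of sterol efflux, storage and the liver X receptors, 5 rose and 2 fell in BMEC and 2 rose and 5 fell in BMS. Soat1, which esterifies cholesterol, rose in both (0.97 and 1.26), and Abca1, the main efflux pump, rose in BMEC by 1.11 and was not called in BMS, with means of 51.7 FPKM without and 52.3 with HSPC. Of 19 tested accessory genes of lipogenesis, 11 rose and 6 fell in BMEC and 7 rose and 3 fell in BMS. Dgat2, which completes triglyceride synthesis, rose most, by 2.82 in BMS and 0.92 in BMEC. Of 10 genes of the side branches of mevalonate, 4 rose and 2 fell in BMEC, and 4 rose and 3 fell in BMS. These counts stand beside the 28.3% higher and 20.3% lower of all genes in BMEC and the 25.6% and 35.4% in BMS, and nothing particular to the lists was read from them.

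BMEC and BMS of the second series were then compared with each other. Without HSPC all 16 sterol genes were higher in BMEC, with a median log2 difference of 1.11, and with HSPC all 16 were higher with a median of 2.67. Over all genes 42% were called higher and 41.3% lower without HSPC (83.3% in either direction), and 46.6% and 38.6% with HSPC (85.1%), with medians of 0 and 0.09 (0 and -0.03 under trimmed-mean scaling). The comparisons rest on the same libraries as the HSPC comparison. Fatty acid genes were split, with 4 higher and 5 lower without HSPC and 5 higher and 4 lower with HSPC.

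Stard4, a soluble sterol carrier, was furthest apart. It was at 293, 300.1 and 304 FPKM in BMEC and 25.96, 29.04 and 30.8 in BMS without HSPC, a difference of 3.34 (SE 0.06, adjusted p = 1.84e-13). With HSPC it was at 409, 419.97 and 394 and 23.3, 20.7 and 21.6, a difference of 4.16 (SE 0.06, adjusted p = 3e-14). Idi1, the isomerase that makes the allylic building block of isoprenoids, was at 237, 263 and 270.4 and 44.3, 59.1 and 58.1 without HSPC, a difference of 2.24 (SE 0.13, adjusted p = 1.36e-08). With HSPC it was at 402, 434 and 406 and 43.4, 29.1 and 35.4, a difference of 3.51 (SE 0.13, adjusted p = 2.01e-10). The cell types did not overlap for either gene. Sqle was at 432, 450.4 and 453 in BMEC and 123, 148 and 149.6 in BMS without HSPC, a difference of 1.66 (SE 0.11, adjusted p = 4.99e-08). Fdps, farnesyl diphosphate synthase, was at 173, 174 and 166 and 19.8, 14.2 and 15.3 with HSPC, a difference of 3.32 (SE 0.14, adjusted p = 5.75e-10). Again no BMS library reached any BMEC library.

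Fatty acid genes set the cell types apart in both directions. Lpin1 was lower in BMEC without HSPC (6.16, 7.46 and 7.03 against 30.6, 29.6 and 29.7 FPKM), with -1.98 (SE 0.18, adjusted p = 6.31e-07). Elovl6 was lower too (28.5, 35.5 and 34.8 against 112, 117 and 114), with -1.77 (SE 0.07, adjusted p = 2.43e-10). Fasn was higher (378, 430.2 and 416 against 124, 118 and 114), with 1.77 (SE 0.07, adjusted p = 1.39e-10). With HSPC the furthest apart were Scd1 (312, 305 and 312 against 32.4, 53.2 and 40.2), at 2.88 (SE 0.13, adjusted p = 6.37e-10), Fasn (493, 461 and 467 against 86.1, 72.5 and 76.8), at 2.58 (SE 0.07, adjusted p = 4.3e-12), and Acly (756, 740.1 and 758 against 177, 149.98 and 168), at 2.18 (SE 0.05, adjusted p = 2.62e-12). Among the regulators Insig1 and Srebf2 were higher in BMEC in both settings, by 2.14 and 0.79 without HSPC and 2.49 and 1.43 with HSPC.

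**Figure D4:**
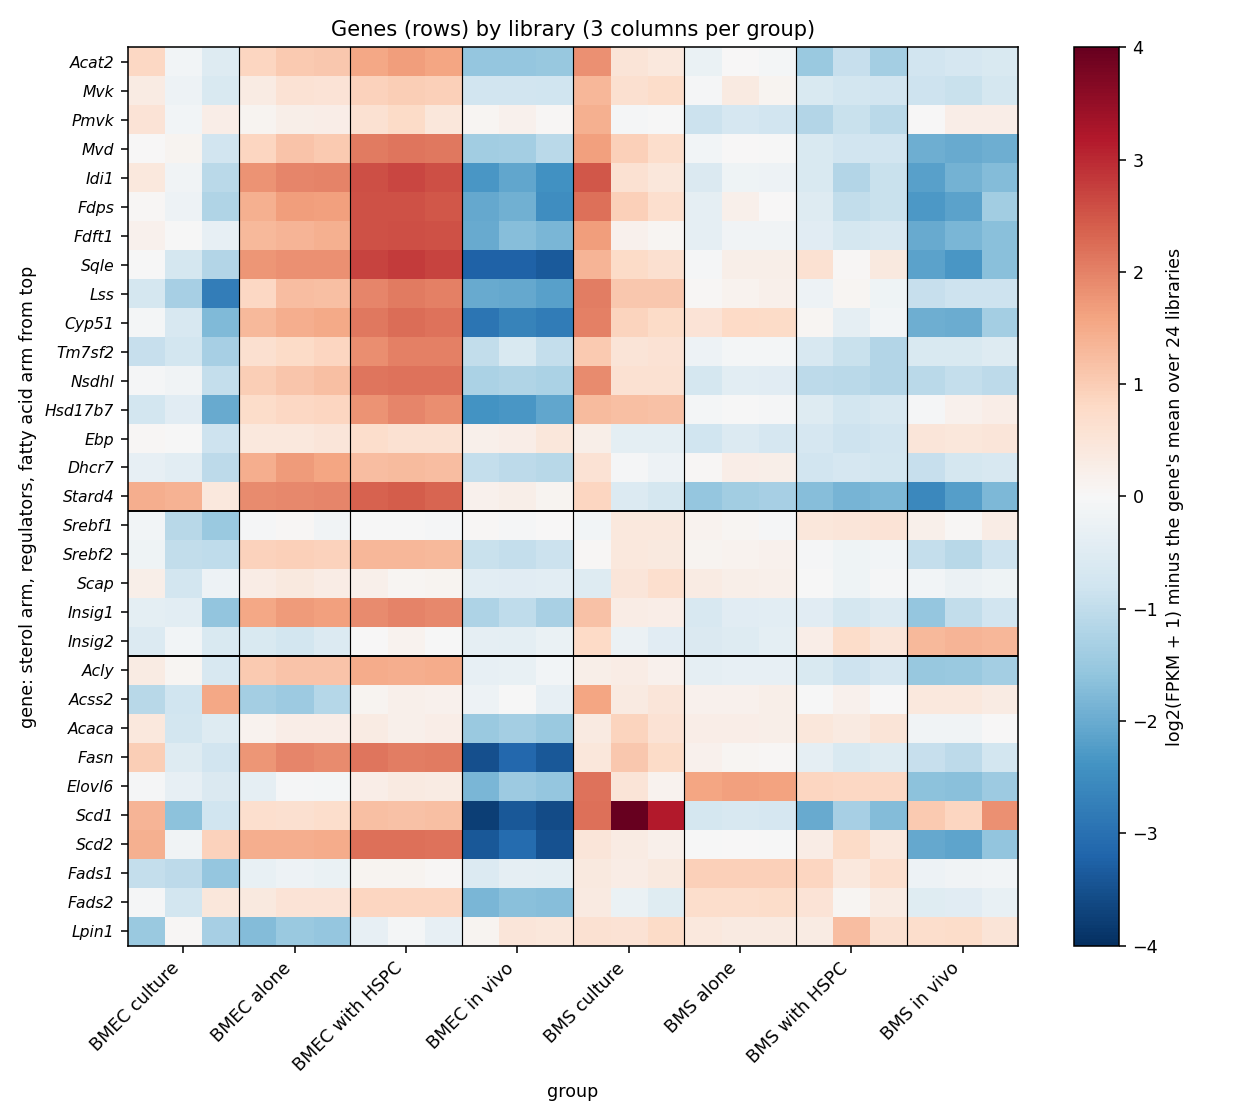
Log2(FPKM + 1) of the 31 genes in the 24 libraries, each gene centred on its mean over all libraries, with colours limited at 4 in either direction. The group mean is highest in BMEC with HSPC for 15 of the 16 sterol rows, and lowest in BMEC in vivo for 9 and in BMS in vivo for 4. The Scd1 row is highest in BMS of the first culture.

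The in vivo comparison asks how each cell type differs between marrow and the first culture. It also sets libraries with Akt1 in the title against libraries without it, and neither that name nor any difference in isolation can be separated from the setting, so these cannot be told apart. In BMEC 0 sterol genes were higher in vivo and 8 were lower, with a median log2 difference of -0.99, and in BMS 1 was higher and 14 lower, with a median of -2.07. Over the 14904 genes tested, 23.6% were called higher and 29.8% lower in BMEC (53.3% in either direction), and 24% and 31.4% in BMS (55.4%), with medians of -0.09 and -0.15. Under trimmed-mean scaling those medians were 0.02 and 0.06, and 56.2% and 57.2% of the calls over all genes were higher, against 44.2% and 43.3% without scaling.

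Sqle was at 126, 77.5 and 55.3 FPKM in cultured BMEC and 12.5, 12.7 and 11.5 in vivo, a difference of -2.64 (SE 0.29, adjusted p = 4.57e-05). Idi1 was at 90.7, 61.3 and 30.99 and 12.6, 14.98 and 11.8, a difference of -2.01 (SE 0.51, adjusted p = 0.00748). Cyp51 was at 84.2, 56.7 and 25.8 and 11.1, 13.3 and 12.04, a difference of -1.96 (SE 0.42, adjusted p = 0.00305). The in vivo libraries were close together and below all cultured ones, which spread widely. In BMS, Fdps was at 135, 56.6 and 46.7 in culture and 5.03, 5.79 and 10.5 in vivo, a difference of -3.21 (SE 0.45, adjusted p = 0.000176). Idi1 was at 383, 102 and 92.4 and 13.98, 17.3 and 19.3, a difference of -3.13 (SE 0.51, adjusted p = 0.000541). Mvd was at 112, 69.9 and 58.8 and 8.33, 7.98 and 8.46, a difference of -3.08 (SE 0.28, adjusted p = 8.07e-06). The groups were again apart, with BMS replicate 1 the highest cultured library for each. Ebp was the sterol gene called higher in vivo in BMS, by 0.65 (SE 0.24, adjusted p = 0.0375), a call lost without BMS replicate 2 or 3 of the culture (adjusted p of 0.119 and 0.112).

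In the fatty acid arm 2 genes were higher and 6 lower in BMEC in vivo, and 0 and 6 in BMS. Over all genes 23.6% were called higher and 29.8% lower in BMEC, and 24% and 31.4% in BMS. Scd2 was at 1933, 658 and 1364 FPKM in cultured BMEC and 67.4, 83.8 and 62.9 in vivo, a difference of -4.07 (SE 0.33, adjusted p = 5.07e-06). Fasn was at 222, 77.6 and 65.3 and 8.76, 11.6 and 9.66, a difference of -3.27 (SE 0.38, adjusted p = 6.26e-05). Scd1 was at 349, 42.7 and 76.5 and 9.04, 12.1 and 10.3, a difference of -3.22 (SE 0.70, adjusted p = 0.00316). All in vivo libraries lay below all cultured ones. The genes that rose were Lpin1, from 7.52, 23.3 and 8.37 to 24.4, 32.2 and 31.8, at 1.28 (SE 0.33, adjusted p = 0.00852), and Fads1, at 0.76 (SE 0.14, adjusted p = 0.00123). In BMS, Elovl6 was at 169, 53.5 and 40.8 in culture and 11.3, 10.9 and 12.9 in vivo, a difference of -2.53 (SE 0.42, adjusted p = 0.000613). Scd2 was at 1012, 911 and 827 and 174, 166 and 238, a difference of -2.26 (SE 0.33, adjusted p = 0.000238). Scd1 was at 623, 2552 and 1234 and 278, 245 and 477, and its difference of -1.97 (SE 0.70, adjusted p = 0.0349) was not called under trimmed-mean scaling (-1.71, adjusted p = 0.0583) or without BMS replicate 2 of the culture (-1.45, adjusted p = 0.126). Scd1 was thus above Scd2 in BMS in vivo, with a Scd2 to Scd1 ratio of 0.601 ± 0.093 against 6.85 ± 0.67 in BMEC in vivo.

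Of the 5 regulators, 1 was called in vivo in BMEC (Srebf1) and 3 in BMS (Srebf2, Insig1 and Insig2). Over all genes, 53.3% were called in BMEC and 55.4% in BMS. Srebf2 was at 136, 77.7 and 75.7 FPKM in cultured BMEC and 83.03, 79.7 and 83.3 in vivo, at 159.7, 208 and 202 in cultured BMS and 78.02, 70.6 and 86.3 in vivo. It was lower in BMS, at -1.26 (SE 0.21, adjusted p = 0.000531), and overlapped in BMEC, at -0.18 (SE 0.21, adjusted p = 0.498). Srebf1 was at 87.04, 42.4 and 32.4 and 96.7, 89.4 and 94.3 in BMEC and at 85.6, 127 and 126 and 108, 95.5 and 116 in BMS. The rise in BMEC was 0.91 (SE 0.30, adjusted p = 0.0263). It was not called without the 3 cultured libraries with Xist (0.10, adjusted p = 0.738), a fit that leaves 1 cultured BMEC library and assumes that it varies like the other groups.

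Scap was at 88.3, 45.1 and 64.7 and 55.4, 54.7 and 55.6 FPKM in BMEC and at 52.1, 106 and 119.8 and 69.9, 63.2 and 65.95 in BMS, and was called in neither. Insig1 was at 125, 122 and 54.6 and 70.1, 81.8 and 66.4 in BMEC and at 378, 202 and 198 and 56.1, 82.7 and 97.7 in BMS, with a lower level in BMS in vivo, at -1.68 (SE 0.35, adjusted p = 0.00256). Insig2 was at 74.9, 100.4 and 71.8 and 84.4, 82.5 and 91.2 in BMEC and at 190.03, 91.8 and 78.7 and 271, 280.1 and 276 in BMS, higher in BMS by 1.30 (SE 0.27, adjusted p = 0.00239). BMS in vivo had the highest Insig2 of all groups and the lowest ratio of Insig1 to Insig2, 0.285 ± 0.074.

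The in vivo difference itself differed between the cell types for 10 genes, 6 of them higher in BMEC (Mvd, Tm7sf2, Mvk, Srebf2, Acly and Fads1) and 4 lower (Insig2, Fasn, Scd2 and Fads2), where 16.4% and 17.1% of all genes were called (33.5% in either direction). Mvd was at 35.9, 38.2 and 20.3 FPKM in cultured BMEC and 12.8, 13.2 and 16.2 in vivo, and its difference of differences was 2.02 (SE 0.39, adjusted p = 0.00276). Tm7sf2 was at 10.9, 12.4 and 7.96 and 10.5, 13.9 and 10.8 in BMEC and at 45.97, 31.3 and 32.98 and 13.9, 13.9 and 14.9 in BMS, which gave 1.45 (SE 0.29, adjusted p = 0.00366). Its BMS groups were apart and its BMEC groups overlapped. Mvk was at 54.99, 37.4 and 27.9 and 25.2, 25.4 and 24.5 in BMEC and at 112, 67.7 and 72.7 and 23.9, 22.9 and 26.6 in BMS, which gave 1.10 (SE 0.34, adjusted p = 0.0312). Acly was at 335, 280.2 and 169.9 and 213, 219.9 and 247 in BMEC and at 314, 332 and 305 and 92.4, 94.8 and 105 in BMS, which gave 1.54 (SE 0.29, adjusted p = 0.0023). Acly overlapped between the settings in BMEC and was apart in BMS. Fasn was at 153, 237 and 191 and 58.02, 52.6 and 66.8 in BMS, and its fall was larger in BMEC, at -1.59 (SE 0.54, adjusted p = 0.0438), as was that of Scd2, at -1.81 (SE 0.46, adjusted p = 0.0126). The number of calls was 6 without BMEC in vivo replicate 1 or without BMS in vivo replicate 3, and 18 with the spread from all 8 groups.

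**Figure D5:**
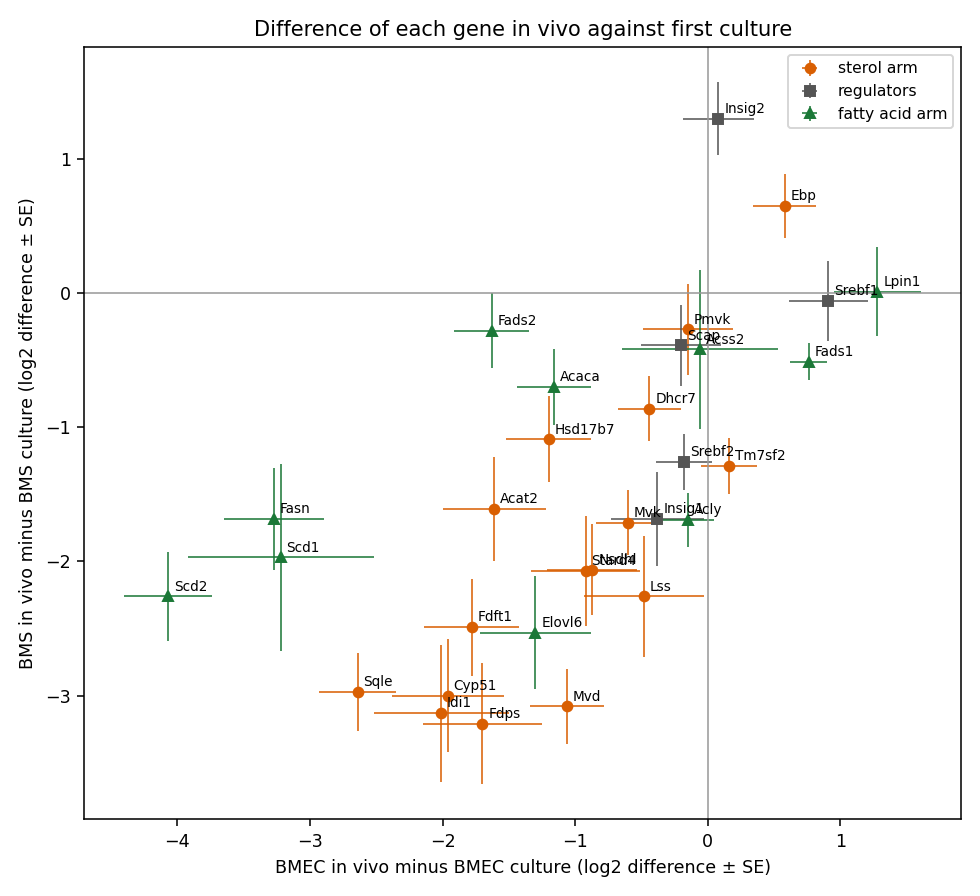
The log2 difference of in vivo against the first culture in BMEC (horizontal axis) and BMS (vertical axis) for the 31 genes, coloured by arm, with lines of 1 SE. Most genes lie below 0 on both axes, Scd2 is furthest left at -4.07, and Insig2 is highest at 1.30 in BMS.

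Other markers differed between these groups as well. The 7 erythroid markers summed to 37135.3 to 44888.1 FPKM in BMS in vivo, 665.5 to 1302.7 in BMEC in vivo and 2.5 or less in the first culture. Adipocyte markers summed to 3703.8 to 4262.7 in BMS in vivo and 1128.3 to 1214.5 in BMEC in vivo, against 7.2 to 125.9 in cultured BMEC. Most of the sum in BMEC in vivo came from Pparg (mean 763 FPKM) and Lpl (358). Adipoq averaged 21.8 FPKM there, and Plin1, Cidec, Lep and Retn were at 0. The markers on that list did not move together in BMS. Adipoq averaged 2700 FPKM in BMS in vivo and 132 in cultured BMS. Cebpa (513 and 184) and Lpl (708 and 271) were also higher in vivo. Plin1 (1.46 and 35.6), Plin4 (4.31 and 76.7), Pparg (98.2 and 135), Cidec (0 and 3.38) and Retn (0 and 5.39) were lower in vivo. The part of these markers in the lipogenic values was not tested.

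Between the cell types the sign of the sterol arm depended on the setting. In the first culture 1 sterol gene was higher in BMEC and 11 were lower, with a median of -1.37, where 20.1% and 18.6% of all genes were called (38.7% in either direction). Lss was at 16.98, 10.6 and 3.28 FPKM in BMEC and 118, 60.8 and 60.2 in BMS, a difference of -3.00 (SE 0.45, adjusted p = 0.000516). Hsd17b7 was at 28.8, 35.3 and 11.4 and 118, 113 and 112, a difference of -2.28 (SE 0.32, adjusted p = 0.000361). Cyp51 was at 84.2, 56.7 and 25.8 in BMEC and 366, 168 and 155 in BMS, a difference of -2.07 (SE 0.42, adjusted p = 0.00336). No BMEC library reached a BMS library for these genes. Scd1 was furthest apart in the fatty acid arm, at -3.57 (SE 0.70, adjusted p = 0.00263), followed by Lpin1 (7.52, 23.3 and 8.37 against 34.8, 34.6 and 38.9), at -1.57 (SE 0.33, adjusted p = 0.00415), and Fads1 (90.1, 84.4 and 59.8 against 232, 219.8 and 234), at -1.56 (SE 0.14, adjusted p = 1.44e-05). Of the 20 members called, 10 remained in number without the 3 libraries with Xist and 10 when the fit held the 2 compared groups only.

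In vivo, 1 sterol gene was higher in BMEC and 3 were lower, where 25% and 24.2% of all genes were called (49.3% in either direction). Stard4 was at 87.6, 91.2 and 84.7 FPKM in BMEC and 12.1, 16.3 and 21.6 in BMS, a difference of 2.37 (SE 0.41, adjusted p = 0.000726). Hsd17b7 was at 8.46, 8.98 and 10.7 and 46.7, 54.8 and 58.1, a difference of -2.39 (SE 0.32, adjusted p = 0.000135). Sqle was at 12.5, 12.7 and 11.5 in BMEC and 28.02, 24.4 and 38.7 in BMS, a difference of -1.22 (SE 0.29, adjusted p = 0.00565). Stard4 was called higher in BMEC in all 4 settings, although its call in the first culture, 1.21 (SE 0.41, adjusted p = 0.0383), was lost without BMS replicate 2 (1.00, adjusted p = 0.131). Hsd17b7 was higher in BMS both in the first culture and in vivo. In the fatty acid arm Acly was higher in BMEC and 5 genes were lower, with Scd1 at -4.81 (SE 0.70, adjusted p = 0.000223), Fasn at -2.45 (SE 0.38, adjusted p = 0.000346) and Scd2 at -1.41 (SE 0.33, adjusted p = 0.00456). Insig2 was lower in BMEC, at -1.67 (SE 0.27, adjusted p = 0.000481). With the 2 in vivo groups alone in the fit, 19 members were called in place of 11.

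The second culture series without HSPC was also set against the first culture, where the name of the series and any change of conditions cannot be told apart. BMEC had 11 sterol genes higher and 0 lower in the second series, where 8.78% and 14.4% of all genes were called (23.2% in either direction, 37.8% of calls higher, 49.1% under trimmed-mean scaling and 52.2% under quantile normalization, with medians of -0.11, -0.03 and 0), and BMS had 0 higher and 10 lower, where 16% and 17.8% were called (33.8% in either direction). In BMEC Lss went from the levels above to 50.4, 68.1 and 66.04 FPKM, at 2.69 (SE 0.45, adjusted p = 0.00291). Cyp51 went to 222, 247 and 257, at 2.25 (SE 0.41, adjusted p = 0.00408), and Sqle differed by 2.43 (SE 0.27, adjusted p = 0.000294). Every library of the second series lay above every library of the first for these genes. Insig1 rose in BMEC by 2.44 (SE 0.32, adjusted p = 0.000799) and Srebf2 by 1.65 (SE 0.20, adjusted p = 0.000465), and Insig1 was lower in BMS, at -1.08 (SE 0.32, adjusted p = 0.0263). In BMS the largest differences of the sterol arm were those of Nsdhl (222, 89.4 and 90.2 against 35.4, 43.99 and 42.2 FPKM), at -1.57 (SE 0.34, adjusted p = 0.00593), Idi1, at -1.51 (SE 0.51, adjusted p = 0.0445), and Fdps, which was at 22.2, 33.7 and 29.3 in the second series, at -1.31 (SE 0.40, adjusted p = 0.0295). Their groups did not overlap. Fasn, Acly and Fads1 were the fatty acid genes called higher in BMEC. In BMS Scd1 fell most, at -3.88 (SE 0.68, adjusted p = 0.00167), and the adipocyte markers summed to 30.8 to 32.8 FPKM in the second series, a level whose part in that fall was not tested. Acly also fell in BMS, and Fads1 and Fads2 rose there. Leaving out any BMS library of the second series reduced the 15 calls in BMS to 6 or 7. Pmvk, phosphomevalonate kinase, and Ebp had the smallest ranges of the sterol arm over the 8 groups, 1.65 and 1.40 on the log2 scale, and Sqle the largest, 6.00.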

How the data were processed

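RNA was extracted with Trizol and sequenced as paired ends after TruSeq preparation, per the labels' protocols. The authors deposited 1 table of FPKM values per library, made with TopHat and Cufflinks on the mouse build mm9, with no versions named in the submitters' processing notes. The deposited FPKM values were used without further scaling, on the log2 scale with a pseudocount of 1. Counts were not used here, and depth is unknown. A search for single-read steps among values of 0.3 to 2 FPKM over 276 pairs of libraries gave no depth: a bin of 0.05 log2 units held at most 8.55% of a pair's values and at most 26.8 times the median bin.

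Groups came from the titles. A gene was tested where 3 or more of the 12 libraries of a fit reached an FPKM of 1. The test was limma 3.58.1 under R 4.3.3, with linear fits and a trended empirical Bayes step, in 3 fits that gave 12 comparisons. The comparisons were HSPC against none, in vivo against the first culture, and the second against the first culture, each in BMEC and in BMS, then BMEC against BMS in 4 settings, and 2 differences of differences. A gene was called below a p of 0.05 after Benjamini-Hochberg adjustment across every gene tested, and all 31 genes passed the filter in every fit. The procedure was tested on simulated data. Python 3.11.15 with matplotlib 3.10.9 drew the figures.

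The members, the other lists, the marker lists and the alternative without libraries carrying Xist were chosen with earlier results of these data known. All 31 members were to be named. Values in every library were to be given for the 5 regulators and for the 3 called members per arm with the largest difference. Members picked by size of difference tend to have groups without overlap, and the share of all genes without overlap was not counted. Alternatives were a pseudocount of 0.1, a filter at 5 FPKM or none, quantile normalization, scaling by a trimmed mean (0.3 of ratios and 0.05 of levels trimmed), the replicate number as a block, group weights, other sets of groups in the fit, a minimum log2 difference of 1, and each library left out. Exon overlaps came from GENCODE M21 and promoter sequences from RefSeq (GRCm38.p6).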

Additional observations from a re-analysis of the deposited data

Results flagged for a closer look

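The change with HSPC differed between BMEC and BMS for 27 of the 31 genes by the test of the difference itself (limma, adjusted p under 0.05 over all genes). Over all genes 57% were called in that test, 36% higher and 21.1% lower, with a median of 0.11 (0.01 under trimmed-mean scaling). Of the 27 differences of log2 differences (BMEC minus BMS), 26 were above 0. In the sterol arm they were 1.99 for Tm7sf2, 1.79 for Mvd, 1.76 for Acat2, 1.70 for Fdps, 1.66 for Hsd17b7, 1.63 for Nsdhl, 1.58 for both Fdft1 and Cyp51, and 1.30 for Mvk. They were smaller for Idi1 at 1.26, Lss at 1.17, Stard4 at 0.81, Sqle at 0.72, Pmvk at 0.68, Dhcr7 at 0.58 and Ebp at 0.28. In the fatty acid arm they were 1.60 for Acss2, 1.55 for Scd1, 1.25 for Elovl6, 1.00 for Lpin1, 0.81 for Fasn, 0.77 for Fads2, 0.73 for Acly and 0.65 for Fads1. Among the regulators they were 0.64 for Srebf2, 0.36 for Insig1 and -0.41 for Srebf1, the single negative value. BMEC and BMS libraries with HSPC also differed in the summed level of blood cell markers, whose part was not tested.

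The difference between marrow and the first culture differed between the cell types for 10 of the 31 genes by the same test. Of all genes 33.5% were called there, 16.4% higher and 17.1% lower. The difference of differences was above 0 for Mvd at 2.02, Acly at 1.54, Tm7sf2 at 1.45, Fads1 at 1.27, Mvk at 1.10 and Srebf2 at 1.08. It was below 0 for Scd2 at -1.81, Fasn at -1.59, Fads2 at -1.36 and Insig2 at -1.23. Several of these calls were lost when 1 library was left out, among them Insig2, Mvk, Fasn and Fads2.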

How the results depend on the processing

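Called over all genes were 48.6% for HSPC in BMEC, 61% in BMS and 57% for their difference. Counts of the 31 genes called were 29, 25 and 27 in that order. With all 8 groups in the fit they were 9, 6 and 11, in a fit whose error also draws on the first culture, the libraries with the lowest correlations within a group. With a log2 difference of at least 1 they were 7, 2 and 15. Of the 10 calls for the in vivo difference between cell types, the count was 18 with all 8 groups. Of the 20 calls for BMEC against BMS in the first culture, the count was 13 with a weight per group, 10 with only the compared groups and 10 without the 3 libraries with Xist. Of the 11 calls in vivo, it was 18 with a weight per group and 19 with only the compared groups. For the second against the first culture in BMS it was 9 of 15 with a log2 difference of at least 1. No cause of these changes in count was tested, and this includes the lower correlations within the first culture.

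Leaving out each library in turn gave 27 to 29 calls for HSPC in BMEC, 23 to 27 in BMS and 27 to 29 for their difference. It gave 26 to 27 for BMEC against BMS without HSPC and 29 to 30 with HSPC, 15 to 22 for in vivo in BMEC, 21 to 26 in BMS and 6 to 13 for their difference. It gave 16 to 22 for BMEC against BMS in the first culture, 10 to 14 in vivo, 14 to 23 for the second culture series in BMEC and 6 to 18 in BMS.

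The replicate numbers were not used as pairs in the main fits. Correlations of same-numbered deviations ran from -0.16 to 0.12. With 3 libraries per group these cannot show whether libraries with the same number shared an origin. With the replicate block the counts were 29, 26 and 27 for HSPC, and 11 in place of 15 for the second culture series in BMS. Of single differences, Acaca between BMEC and BMS without HSPC, not called as deposited, was called at 0.15 under quantile normalization, in the other direction. In the HSPC difference under trimmed-mean scaling Ebp (0.17) and Insig1 (0.24) lost the call, and Insig2 (-0.43) and Acaca (-0.26) gained one. Precision from depth is unknown, and 3 libraries per group limit every value.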
